A study of Mus musculus with 11 samples.

Results

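The 49 genes described here encode the proteins that send, receive and restrain Wnt signals: 13 Wnt ligands, the ligand-modifying enzyme Porcn, 12 receptors and co-receptors, 4 R-spondin pathway genes, 11 secreted inhibitors, 5 membrane inhibitors and 3 intracellular inhibitors. They were chosen by name. All 49 were found among the 55536 Ensembl mouse genes of the count tables, and 48 passed the low-count filter. The exception was Dkk1, a secreted Wnt antagonist, which lay between 0 and 0.132 counts per 1000000 counts of a library (CPM).

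Wnt proteins are secreted signals that bind frizzled receptors (Fzd) together with the co-receptors Lrp5 or Lrp6 and keep beta-catenin from being destroyed, so that it can act with TCF and LEF factors on target genes. R-spondins raise the signal through the Lgr receptors, while secreted proteins such as Sfrp1, Dkk and Wif1, membrane proteins such as Apcdd1 and intracellular proteins such as Axin2 restrain it. In skin this pathway is known for its part in hair follicle growth and in the upkeep of basal keratinocytes.

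RNA was sequenced in bulk from keratinocytes of the back skin of male mice that carry CD4Cre and the R26-tdT reporter on a C57Bl6/N background. In these mice Cre is driven by the Cd4 promoter, and a cell that has ever made Cre, with its progeny, keeps the red reporter tdT. Cells were freed with thermolysin and taken from a CD49f+CD34+ gate. This gate was divided by surface Sca-1 and by tdT into Sca-1neg tdT+ (3 libraries), Sca-1neg tdT- (3), Sca-1+ tdT+ (3) and Sca-1+ tdT- (2). All 4 groups share genotype, strain, sex and gate, and no group lacks Cre or the reporter. Each library pooled 2 mice, aged 29 weeks for replicate 1 of each group and 32 weeks for the others. CD34 is a surface protein of bulge stem cells of the follicle, and Sca-1 (Ly6a) one of keratinocytes of the upper follicle and interfollicular epidermis.

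Library totals ran from 17409131 to 46542177 counts. The entry of the count tables read as the tdT tracer was at 2.05 CPM in the replicate 2 library labelled Sca-1neg tdT+, below the 5 tdT- libraries (2.54 to 4.89 CPM) and far below the other 5 tdT+ libraries (133 to 307 CPM), which is why that library is named by its label throughout. It also held the highest Ly6a of the Sca-1neg libraries (59.2 CPM), which was 27.6, 59.2 and 9.64 CPM (labelled tdT+) and 5.74, 2.46 and 2.90 CPM (tdT-) in Sca-1neg cells, against 158, 294 and 153 CPM (tdT+) and 187 and 172 CPM (tdT-) in Sca-1+ cells. Itga6, which encodes CD49f, ran from 387 to 1276 CPM, and Cd4 reached at most 4.64 CPM. The Sca-1+ tdT+ libraries held only 24.3, 35.7 and 22.3 CPM of Cd34 transcripts, against 319.6 to 1130.1 CPM in the rest. Summed over 13 liver genes, 3 libraries (Sca-1neg tdT+ replicate 1, the replicate 2 library labelled Sca-1neg tdT+ and Sca-1neg tdT- replicate 2) held 14129 to 29657 CPM and the other 8 held 10.1 to 107 CPM. Below, the values of a group stand in the order of its replicates. In Sca-1neg cells, the values marked "labelled tdT+" hold this library as the second.

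Most calls of Wnt genes lay between Sca-1+ and Sca-1neg cells, as did most calls over all genes. Passing here means an adjusted p under 0.05 in the quasi-likelihood test of edgeR fitted to all 11 libraries. Of all genes, 2572 passed with Sca-1 among tdT+ libraries and 1166 among tdT- libraries. For tdT, 556 passed in the Sca-1+ fraction and 13 in the Sca-1neg fraction, and 98 passed for the difference of these effects. Calls made only by another tool or setting are marked as such where given, and not every one is listed. Among tdT+ libraries, 26 of the 48 tested members passed this threshold between Sca-1+ and Sca-1neg cells, 11 higher and 15 lower, where 12.7% of all 20307 genes tested passed (5.94% higher and 6.73% lower). Among tdT- libraries 17 passed, 7 higher and 10 lower, beside 5.74% of all genes (3.68% higher and 2.06% lower). In the tdT+ comparison 7 of 13 ligands were higher and 8 of 12 receptors and co-receptors were lower in Sca-1+ cells. Between tdT+ and tdT- cells of the Sca-1+ fraction 6 members passed, 1 higher and 5 lower, beside 2.74% of all genes (0.394% higher and 2.34% lower). In the Sca-1neg fraction the quasi-likelihood test of edgeR called 0 members between tdT+ and tdT-, beside 0.064% of all genes (0.0542% higher and 0.00985% lower). There 11 members had an unadjusted p under 0.05, beside 8.33% of all genes. DESeq2 called 5 members there, beside 432 of the 19658 genes it tested. For the difference of the tdT effect between the fractions 1 member passed, Fzd4, as lower, beside 0.483% of all genes (0.0148% higher and 0.468% lower). Scaled by library size alone, the Sca-1+ tdT comparison held 0 higher and 5 lower members. Without the replicate 2 library labelled Sca-1neg tdT+, the 5 counts in this order were 23, 17, 7, 0 and 1. Without the 3 libraries with liver transcripts they were 20, 19, 12, 1 and 1. Counts over all genes also moved when libraries were left out. For leaving out 1 library, the closing section gives them only as ranges over all such runs. Without the 3 libraries with liver transcripts it gives them for each comparison except Sca-1 among tdT+ libraries. The member counts of these settings are therefore not to be read as changes particular to the members. In such bulk samples, fewer cells of a type and less RNA per cell cannot be told apart.

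**Figure D1:**
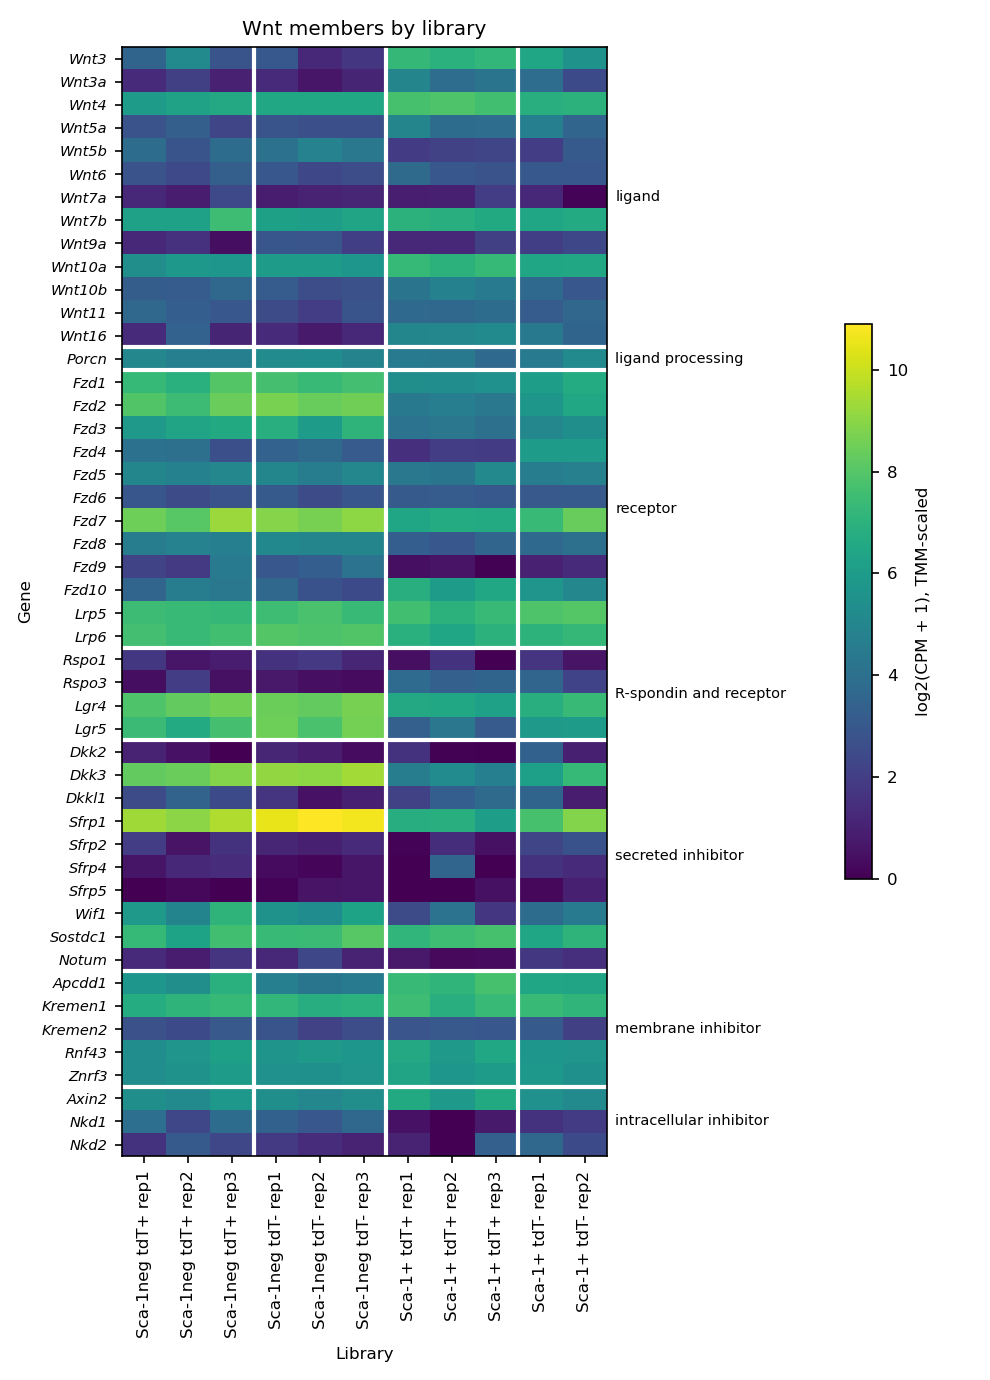
Level of each of the 48 tested Wnt members (rows, grouped by role) in each of the 11 libraries (columns, grouped by sort), as log2(CPM + 1) after TMM scaling. The Sca-1+ libraries on the right are brighter for Wnt3, Wnt16 and Fzd10 and darker for Fzd2, Lgr5, Dkk3 and Sfrp1 than the Sca-1neg libraries on the left.

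To show regulatory sequence of members that moved in opposite directions, the promoter is printed for 4 that changed with Sca-1 and whose RefSeq start lies before or within 1 base of the GENCODE start: Fzd7 and Lgr4, which fell, and Wnt3a and Wnt16, which rose. Each is the 250 bases before the RefSeq start site (GRCm38.p6), written 5′ to 3′ along the gene. The windows are chr1:59481897-59482146, + strand for Fzd7, chr2:109917397-109917646, + strand for Lgr4, chr11:59290752-59291001, - strand for Wnt3a and chr6:22287977-22288226, + strand for Wnt16. Capitals mark a match to the TCF/LEF motifs named after the sequences.
Fzd7: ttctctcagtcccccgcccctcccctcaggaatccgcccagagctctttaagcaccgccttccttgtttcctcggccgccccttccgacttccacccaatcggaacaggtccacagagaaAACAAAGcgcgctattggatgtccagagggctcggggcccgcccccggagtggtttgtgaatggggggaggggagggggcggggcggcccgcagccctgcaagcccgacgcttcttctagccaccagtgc
Lgr4: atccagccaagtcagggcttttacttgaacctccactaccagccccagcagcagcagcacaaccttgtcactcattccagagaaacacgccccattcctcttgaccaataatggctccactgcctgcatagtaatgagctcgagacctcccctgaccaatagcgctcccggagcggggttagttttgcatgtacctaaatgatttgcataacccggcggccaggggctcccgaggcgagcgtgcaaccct
Wnt3a: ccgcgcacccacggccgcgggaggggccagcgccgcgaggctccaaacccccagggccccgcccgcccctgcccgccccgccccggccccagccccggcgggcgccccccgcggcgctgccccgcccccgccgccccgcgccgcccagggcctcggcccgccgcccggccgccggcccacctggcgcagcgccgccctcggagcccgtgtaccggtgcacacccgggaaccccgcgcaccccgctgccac
Wnt16: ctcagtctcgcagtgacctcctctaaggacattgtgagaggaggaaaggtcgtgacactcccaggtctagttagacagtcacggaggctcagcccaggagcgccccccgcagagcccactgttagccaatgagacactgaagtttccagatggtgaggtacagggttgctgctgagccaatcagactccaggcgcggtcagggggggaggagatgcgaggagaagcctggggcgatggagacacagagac

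The motifs searched on both strands were CTTTGAA as the first form, CTTTGAT as the second, CTTTGTA as the third and CTTTGTT as the fourth. They differ in their last letters, so no more than 1 of them can match at a given starting base of a strand. Of the 4 windows, Fzd7 held 1 match, on the opposite strand, beginning at position -130 counted from the start site. RefSeq windows were found for 29 members (33 windows), of which 4 held a match, or 12.1%, beside 14.8% of all 32817 windows of this length. Among windows of members higher in Sca-1+ tdT+ cells 0 of 7 held one, and among windows of members lower there 2 of 10. Wnt3a had 87.6% G and C, Fzd7 65.2%, Wnt16 59.2% and Lgr4 55.6%, beside a median of 52.4% over all windows. A match is a string of letters, not a measured binding site.

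Of 13 Wnt ligands, 7 rose and 1 fell in Sca-1+ against Sca-1neg cells among tdT+ libraries, with a median log2 fold change over the 13 of 1.21 where the median of all genes was -0.07. Among tdT- libraries 3 rose and 1 fell (median 0.59, all genes -0.13). Wnt3, Wnt3a and Wnt16 had the largest changes. Wnt3 (chromosome 11, 103774150 to 103817957, in GRCm38 as for all genes here) encodes a ligand that acts through beta-catenin. In Sca-1neg cells Wnt3 was 10.6, 34.7 and 6.12 CPM (labelled tdT+) and 6.90, 1.40 and 2.34 CPM (tdT-). In Sca-1+ cells Wnt3 was 152, 123 and 146 CPM (tdT+) and 82.7 and 46.5 CPM (tdT-). The Sca-1+ values all lay above the Sca-1neg values, and the replicate 2 library labelled Sca-1neg tdT+ was the highest of the Sca-1neg libraries. Wnt3 was 18.1-fold higher in Sca-1+ cells among tdT- libraries, a log2 fold change of 4.18 ± 0.86 (adjusted p = 0.0301), and rose by 3.04 ± 0.78 (adjusted p = 0.0403) among tdT+ libraries.

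Wnt3a (chromosome 11, 59248033 to 59290752), a close relative of Wnt3, showed the same order at a lower level. In Sca-1neg cells Wnt3a was 1.54, 3.21 and 0.992 CPM (labelled tdT+) and 1.45, 0.581 and 1.17 CPM (tdT-). In Sca-1+ cells Wnt3a was 30.0, 13.7 and 17.4 CPM (tdT+) and 13.7 and 4.40 CPM (tdT-). No Sca-1neg value reached a Sca-1+ value. The log2 rise was 3.08 ± 0.63 (adjusted p = 0.0192) among tdT- and 3.41 ± 0.61 (adjusted p = 0.00496) among tdT+ libraries. Wnt16 (chromosome 6, 22288227 to 22298522), a ligand linked to bone and to keratinocytes, followed. In Sca-1neg cells Wnt16 was 1.54, 9.69 and 1.16 CPM (labelled tdT+) and 1.55, 0.714 and 1.37 CPM (tdT-). In Sca-1+ cells Wnt16 was 31.0, 32.3 and 35.9 CPM (tdT+) and 20.3 and 10.3 CPM (tdT-). Its groups did not overlap, though the replicate 2 library labelled Sca-1neg tdT+ came close to Sca-1+ tdT- replicate 2. The log2 rise was 3.65 ± 0.82 (adjusted p = 0.0323) among tdT- and 3.001 ± 0.76 (adjusted p = 0.0309) among tdT+ libraries. Summed over 7 genes of differentiating epidermis, the libraries held 2364, 4062 and 1544 CPM (labelled tdT+) and 1699.9, 488 and 638 CPM (tdT-) in Sca-1neg cells, against 8607, 7088 and 9869.7 CPM (tdT+) and 6961 and 3019 CPM (tdT-) in Sca-1+ cells. Of those 7 genes, 4 were higher and 3 lower with Sca-1 among tdT+ libraries, and all 7 were higher among tdT- libraries. In each Sca-1 comparison 1 passed, as higher, beside 5.94% (tdT+) and 3.68% (tdT-) of all genes. The part of these cells in the ligand values was not tested.

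Averaged over all libraries, Wnt10a and Wnt4 were the ligands with the highest CPM per kilobase of exon (CPM per kb). In the libraries labelled Sca-1neg tdT+ the mean of Wnt7b was higher (22.3 CPM per kb, against 20.02 for Wnt10a and 18.4 for Wnt4). Wnt10a (chromosome 1, 74791516 to 74804179) is a ligand needed for hair and tooth formation. In Sca-1neg cells Wnt10a was 40.6, 55.0 and 52.7 CPM (labelled tdT+) and 61.8, 62.3 and 51.9 CPM (tdT-). In Sca-1+ cells Wnt10a was 157, 128 and 155 CPM (tdT+) and 84.2 and 92.9 CPM (tdT-). The 3 Sca-1+ tdT+ values stood above all others. Wnt10a rose by 1.57 ± 0.16 (adjusted p = 0.000223) with Sca-1 on the log2 scale among tdT+ libraries. Among tdT- libraries it changed by 0.59 ± 0.17 (adjusted p = 0.0665), short of the threshold in edgeR with TMM scaling and all libraries. Wnt10a did pass there in DESeq2 (adjusted p 0.00778). In edgeR it passed there with DESeq2's size factors (adjusted p 0.0374) and with only the groups compared (0.0411). It also passed there on leaving out Sca-1neg tdT+ replicate 1 (adjusted p 0.0482) or Sca-1+ tdT+ replicate 2 (0.0466). Wnt4 (chromosome 4, 137277489 to 137299726), a ligand of the epidermis, kidney and reproductive tract, rose as well. In Sca-1neg cells Wnt4 was 61.3, 75.6 and 95 CPM (labelled tdT+) and 91.1, 90.6 and 88.2 CPM (tdT-). In Sca-1+ cells Wnt4 was 210.4, 240.0 and 192 CPM (tdT+) and 112 and 128 CPM (tdT-). Again the Sca-1+ tdT+ libraries formed the top, with no overlap. The rise in Wnt4 was 1.47 ± 0.17 (adjusted p = 0.00042) between the tdT+ groups, while the tdT- groups differed by 0.42 ± 0.18 (adjusted p = 0.221).

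Wnt10b and Wnt5a passed in the tdT+ comparison, and among tdT- libraries they did not pass in edgeR. Wnt10b (chromosome 15, 98770712 to 98778150) is a ligand that acts through beta-catenin in follicle growth. In Sca-1neg cells Wnt10b was 8.34, 8.14 and 12.0 CPM (labelled tdT+) and 8.12, 4.94 and 5.51 CPM (tdT-). In Sca-1+ cells Wnt10b was 17.5, 26.6 and 21.8 CPM (tdT+) and 12.4 and 6.83 CPM (tdT-). Sca-1+ tdT+ values were the highest, while Sca-1+ tdT- values fell inside the Sca-1neg range or just above it. The log2 rise was 1.21 ± 0.32 (adjusted p = 0.0316) among tdT+ libraries, and the tdT- difference was 0.63 ± 0.35 (adjusted p = 0.338). Wnt5a (chromosome 14, 28504750 to 28527448), known for signalling apart from beta-catenin, was 5.85, 8.89 and 3.80 CPM (labelled tdT+) and 6.16, 5.29 and 5.34 CPM (tdT-) in Sca-1neg cells. Its Sca-1+ values were 30.2, 13.6 and 13.9 CPM (tdT+) and 24.7 and 10.8 CPM (tdT-), without overlap between fractions. The rise was 1.64 ± 0.44 (adjusted p = 0.0325) among tdT+ libraries, and 1.67 ± 0.47 (adjusted p = 0.0642) among tdT- libraries did not pass. Wnt5a did pass there in DESeq2 (adjusted p 0.00400) and in edgeR with no low-count filter (0.0257), with only the groups compared (0.0427) and without Sca-1neg tdT+ replicate 3 (0.0448). DESeq2 also called Wnt10b between tdT+ and tdT- cells of the Sca-1+ fraction (adjusted p 0.0290).

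Wnt5b (chromosome 6, 119432531 to 119544347), the close relative of Wnt5a, was the ligand that fell. In Sca-1neg cells Wnt5b was 13.2, 6.21 and 13.3 CPM (labelled tdT+) and 15.5, 27.5 and 19.4 CPM (tdT-). In Sca-1+ cells Wnt5b was 2.72, 3.29 and 3.87 CPM (tdT+) and 2.91 and 7.46 CPM (tdT-). In tdT- libraries and in tdT+ libraries alike, every Sca-1+ value lay below the Sca-1neg values of the same tdT class. Wnt5b fell by 2.01 ± 0.49 (adjusted p = 0.0385) and by 1.73 ± 0.42 (adjusted p = 0.0222) on the log2 scale. Neither Wnt6, Wnt7a, Wnt7b, Wnt9a nor Wnt11 passed in any comparison in edgeR with all libraries. DESeq2 called Wnt11 as higher with Sca-1 among tdT- libraries (adjusted p 0.0191) and Wnt9a as lower in tdT+ cells of the Sca-1neg fraction (0.0498). Wnt7b passed as higher with Sca-1 among tdT+ libraries without Sca-1neg tdT+ replicate 3 (adjusted p 0.0368). Wnt7b, the most abundant of them, ran from 68.4 to 180.1 CPM, and the other 4 from 0.0838 to 13.5 CPM. Porcn, the enzyme that attaches the lipid that Wnt proteins need for secretion, was 31.5, 25.3 and 25.02 CPM (labelled tdT+) and 37.6, 37.8 and 28.3 CPM (tdT-) in Sca-1neg cells, against 21.6, 20.3 and 12.2 CPM (tdT+) and 20.7 and 34.98 CPM (tdT-) in Sca-1+ cells. Porcn passed in no comparison, though its tdT+ groups did not overlap (-0.60 ± 0.26 (adjusted p = 0.158) with Sca-1).

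The make-up of the ligand pool shifted with these changes. CPM divided by exon length in kilobases (CPM per kb) allows genes to be compared within a library. Summed over the 13 ligands it was 65.0, 80.8 and 99.5 (labelled tdT+) and 79.9, 79.0 and 75.1 (tdT-) in Sca-1neg cells, against 226, 202 and 208 (tdT+) and 129 and 121 (tdT-) in Sca-1+ cells. The share of Wnt3 in that sum, in percent, was 5.28, 13.95 and 2.00 (labelled tdT+) and 2.81, 0.577 and 1.01 (tdT-) in Sca-1neg cells, against 21.9, 19.8 and 22.8 (tdT+) and 20.8 and 12.5 (tdT-) in Sca-1+ cells. Wnt10a and Wnt4 each held between a low of 20.7% and a high of 32.0% in every library.

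Some ligand genes lie side by side in the genome. Wnt6 and Wnt9a are given here for their position, not for their values. Wnt6 and Wnt10a stand on the same strand of chromosome 1 with 6193 bp between them. Wnt10a rose with Sca-1 among tdT+ libraries as given above, and Wnt6 differed by 0.42 ± 0.40 (adjusted p = 0.512). Wnt3a and Wnt9a point away from each other on chromosome 11 across 16175 bp. Against the rise of Wnt3a, Wnt9a differed by 0.65 ± 0.66 (adjusted p = 0.542) among tdT+ and by -0.57 ± 0.73 (adjusted p = 0.721) among tdT- libraries. The difference between neighbours was itself not tested.

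The frizzled receptors moved the other way. Of 12 receptors and co-receptors, 8 fell and 1 rose with Sca-1 among tdT+ libraries (median -1.81, all genes -0.07). Among tdT- libraries 5 fell and 2 rose (median -0.87, all genes -0.13). Fzd2 (chromosome 11, 102604396 to 102608058) showed the largest fall among the abundant ones. In Sca-1neg cells Fzd2 was 245, 175 and 342 CPM (labelled tdT+) and 419, 330.4 and 371 CPM (tdT-). In Sca-1+ cells Fzd2 was 20.3, 24.3 and 19.3 CPM (tdT+) and 54.1 and 92.6 CPM (tdT-). Sca-1+ tdT+ libraries were lowest, then Sca-1+ tdT-, with both Sca-1neg groups above and no overlap between fractions. Fzd2 fell by 3.58 ± 0.28 (adjusted p = 6.36e-05) among tdT+ libraries, 11.9-fold, and by 2.35 ± 0.31 (adjusted p = 0.00383) among tdT- libraries. It also fell by 1.78 ± 0.28 (adjusted p = 0.00723) in tdT+ against tdT- cells within the Sca-1+ fraction.

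Fzd7 (chromosome 1, 59482424 to 59486955) was the frizzled with the highest CPM per kb averaged over all libraries, though in Sca-1+ tdT+ libraries the mean of Fzd10 was higher (27.1 against 21.4 CPM per kb). In Sca-1neg cells Fzd7 was 362, 267 and 605 CPM (labelled tdT+) and 483, 410.1 and 525 CPM (tdT-). In Sca-1+ cells Fzd7 was 86.7, 102 and 102 CPM (tdT+) and 159.8 and 325 CPM (tdT-). Sca-1+ tdT+ values were below all others, whereas Sca-1+ tdT- replicate 2 lay inside the Sca-1neg range. Fzd7 fell by 2.09 ± 0.32 (adjusted p = 0.00229) among tdT+ libraries and did not pass among tdT- libraries, at -0.97 ± 0.35 (adjusted p = 0.148), except without the 3 libraries with liver transcripts (adjusted p 0.0489). Fzd1 (chromosome 5, 4753839 to 4758035), similar in sequence to Fzd2 and Fzd7, was 157, 119 and 248 CPM (labelled tdT+) and 202, 168 and 201 CPM (tdT-) in Sca-1neg cells. Its Sca-1+ values were 40.8, 39.1 and 44.6 CPM (tdT+) and 65.3 and 104 CPM (tdT-), all below the Sca-1neg values. Fzd1 fell by 2.08 ± 0.26 (adjusted p = 0.000696) and by 1.17 ± 0.29 (adjusted p = 0.0406).

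Fzd3 (chromosome 14, 65192449 to 65262463), known for its part in planar cell polarity, fell too. In Sca-1neg cells Fzd3 was 59.1, 82.4 and 96.3 CPM (labelled tdT+) and 111, 64.4 and 136 CPM (tdT-). In Sca-1+ cells Fzd3 was 16.8, 19.2 and 15.1 CPM (tdT+) and 32.0 and 41.6 CPM (tdT-). The fractions did not overlap, and the falls were 2.22 ± 0.28 (adjusted p = 0.000664) among tdT+ and 1.498 ± 0.31 (adjusted p = 0.0199) among tdT- libraries. Fzd8 (chromosome 18, 9212163 to 9218136) was 22.8, 27.8 and 25.4 CPM (labelled tdT+) and 32.5, 30.6 and 29.9 CPM (tdT-) in Sca-1neg cells. Its Sca-1+ values were 8.42, 6.87 and 10.8 CPM (tdT+) and 12.2 and 15.3 CPM (tdT-), again with no overlap. Fzd8 fell by 1.54 ± 0.21 (adjusted p = 0.00104) and 1.17 ± 0.24 (adjusted p = 0.0176). Fzd9 (chromosome 5, 135248938 to 135251230) was scarce. In Sca-1neg cells Fzd9 was 3.76, 2.57 and 20.8 CPM (labelled tdT+) and 6.67, 8.46 and 16.5 CPM (tdT-). In Sca-1+ cells Fzd9 was 0.346, 0.511 and 0.0516 CPM (tdT+) and 0.981 and 1.55 CPM (tdT-). Every Sca-1+ value was lower than every Sca-1neg value, and Fzd9 fell by 4.88 ± 0.98 (adjusted p = 0.00947) among tdT+ libraries. Among tdT- libraries it differed by -3.06 ± 1.04 (adjusted p = 0.120), which did not pass in edgeR with all libraries. There it passed in DESeq2 (adjusted p 0.00600), with only the groups compared (0.0267), without the 3 libraries with liver transcripts (0.0163) and without Sca-1neg tdT+ replicate 3 (0.0392).

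Fzd10 (chromosome 5, 128600844 to 128604093) was the frizzled that rose in both comparisons. In Sca-1neg cells Fzd10 was 10.7, 23.8 and 19.5 CPM (labelled tdT+) and 11.3, 5.66 and 4.39 CPM (tdT-). In Sca-1+ cells Fzd10 was 111, 64.3 and 88.9 CPM (tdT+) and 50.9 and 31.5 CPM (tdT-). The Sca-1+ values all exceeded the Sca-1neg values. The rise was 2.53 ± 0.45 (adjusted p = 0.0125) among tdT- and 2.29 ± 0.42 (adjusted p = 0.00673) among tdT+ libraries, or 5.77-fold and 4.90-fold. The share of Fzd10 in the summed frizzled CPM per kb, in percent, was 1.60, 4.53 and 1.88 (labelled tdT+) and 1.17, 0.718 and 0.456 (tdT-) in Sca-1neg cells, against 44.99, 30.1 and 36.2 (tdT+) and 15.6 and 6.35 (tdT-) in Sca-1+ cells. Fzd2 held 7.28, 10.1 and 6.97% in Sca-1+ tdT+ libraries against 38.5, 37.2 and 34.2% in Sca-1neg tdT-. The frizzled sum itself, in CPM per kb, was 206, 162 and 319.7 (labelled tdT+) and 297, 242 and 296 (tdT-) in Sca-1neg cells, against 76.3, 65.9 and 75.6 (tdT+) and 100.3 and 153 (tdT-) in Sca-1+ cells.

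**Figure D2:**
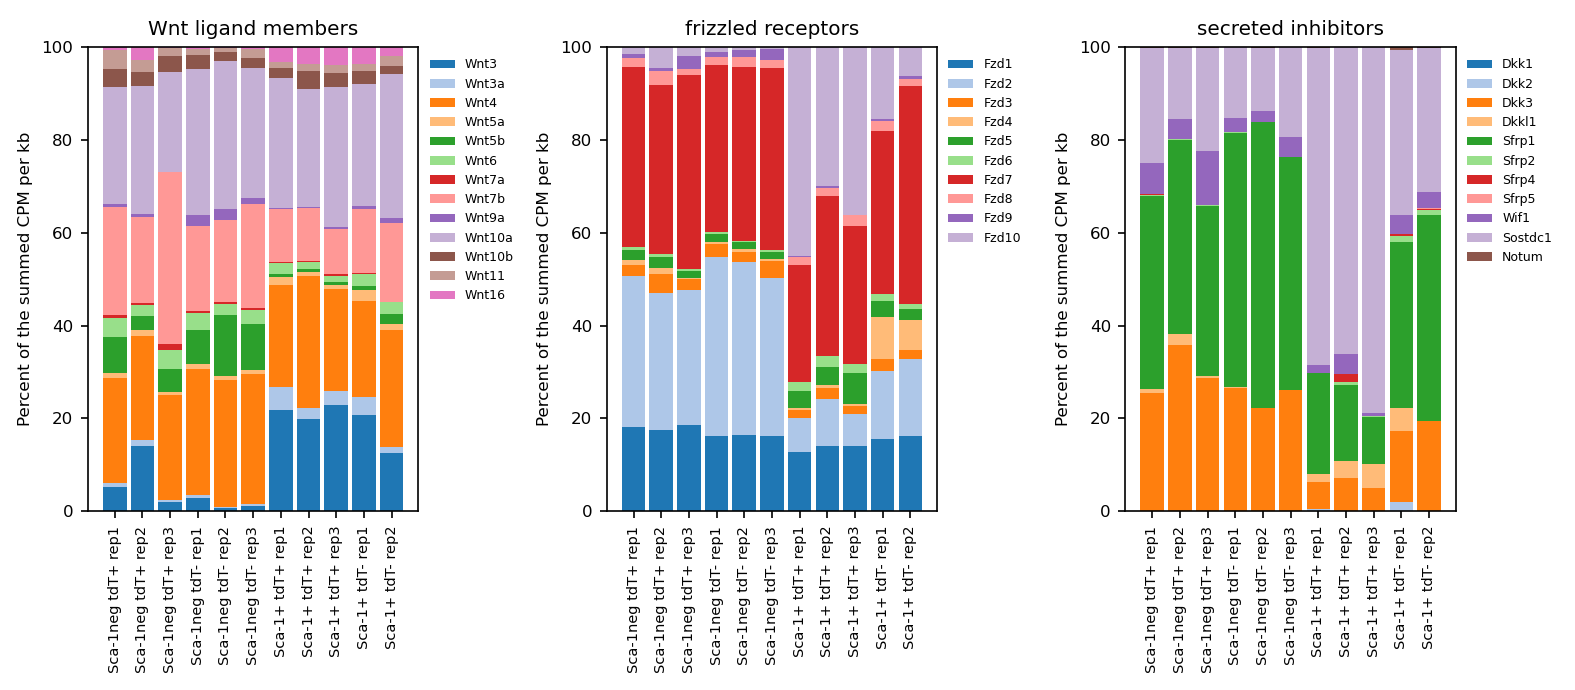
Share of each gene (colours) in the summed CPM per kb of its class, in percent, for each library (bars): Wnt ligands on the left, frizzled receptors in the middle and secreted inhibitors on the right. Fzd10 takes up 30.1 to 44.99% of the frizzled bar in Sca-1+ tdT+ libraries, and Sostdc1 66.0 to 78.7% of the bar of secreted inhibitors there.

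Fzd4 (chromosome 7, 89404355 to 89413134), a receptor for Norrin as well as Wnt proteins and known for its part in blood vessels, moved in opposite directions in the 2 Sca-1 comparisons. In Sca-1neg cells Fzd4 was 15.9, 15.3 and 5.40 CPM (labelled tdT+) and 9.86, 12.8 and 7.76 CPM (tdT-). In Sca-1+ cells Fzd4 was 1.87, 2.95 and 2.79 CPM (tdT+) and 61.5 and 64.7 CPM (tdT-). Both Sca-1+ tdT- libraries stood far above all others, and the Sca-1+ tdT+ libraries lay below all others. Fzd4 rose with Sca-1 by 2.64 ± 0.41 (adjusted p = 0.00690) among tdT- libraries and fell by 2.27 ± 0.39 (adjusted p = 0.00398) among tdT+ libraries. Without the 3 libraries with liver transcripts the tdT+ value was -1.13 and did not pass (adjusted p 0.0545). Within the Sca-1+ fraction it fell by 4.64 ± 0.44 (adjusted p = 0.00041) in tdT+ against tdT- cells, and within the Sca-1neg fraction the tdT difference was 0.27 ± 0.37 (adjusted p = 0.889). The difference between these tdT effects was -4.91 ± 0.57 (adjusted p = 0.00559). Endothelial markers moved with it. Of 14 such genes, all 14 were lower in tdT+ than in tdT- libraries of the Sca-1+ fraction (1 passed, beside 2.34% of all genes). All 14 were higher with Sca-1 among tdT- libraries (0 passed, beside 3.68% of all genes). There 13 of the 14 had an unadjusted p under 0.05, beside 20.5% of all genes. Summed, the 14 endothelial genes held 5796 and 6421 CPM in the Sca-1+ cells without tdT and 14 to 1383 CPM elsewhere. The highest of the others, 1383 CPM, was the replicate 2 library labelled Sca-1neg tdT+, where Fzd4 was 15.3 CPM. In Sca-1neg tdT+ replicate 1 Fzd4 was 15.9 CPM at an endothelial sum of 151 CPM. Sox18 was the one endothelial gene at 0 in any library, Sca-1neg tdT+ replicate 3. The part of endothelial RNA in the Fzd4 values was not tested.

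Lrp6 (chromosome 6, 134446476 to 134566965), a co-receptor that binds Wnt together with a frizzled, fell slightly. In Sca-1neg cells Lrp6 was 198, 167 and 196 CPM (labelled tdT+) and 251, 233 and 245 CPM (tdT-). In Sca-1+ cells Lrp6 was 121, 83.4 and 126 CPM (tdT+) and 132 and 151 CPM (tdT-). Sca-1+ values were below the Sca-1neg values of the same tdT class. The falls were 0.78 ± 0.19 (adjusted p = 0.0364) among tdT- and 0.77 ± 0.17 (adjusted p = 0.0126) among tdT+ libraries. Lrp5, the second such co-receptor, ran from 128 to 259 CPM and passed in no comparison in edgeR, nor did Fzd5 (17.6 to 34.3 CPM) or Fzd6 (4.55 to 8.01 CPM). DESeq2 called Lrp5 as lower in tdT+ cells of the Sca-1+ fraction (-0.65, adjusted p 0.0436).

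In the R-spondin branch, both receptors fell with Sca-1 and 1 of 2 ligands rose, in both comparisons. Lgr5 (chromosome 10, 115450311 to 115587780) is an R-spondin receptor and a marker of follicle stem cells. In Sca-1neg cells Lgr5 was 173, 101.4 and 204 CPM (labelled tdT+) and 359, 217 and 387 CPM (tdT-). In Sca-1+ cells Lgr5 was 9.09, 19.0 and 7.74 CPM (tdT+) and 56.6 and 61.6 CPM (tdT-). Lgr5 was lowest in Sca-1+ tdT+ libraries, next in Sca-1+ tdT- libraries and highest in the Sca-1neg groups, with no overlap between fractions. It fell by 3.74 ± 0.41 (adjusted p = 0.000528) among tdT+ libraries, 13.4-fold, and by 2.44 ± 0.45 (adjusted p = 0.0155) among tdT- libraries. Lgr4 (chromosome 2, 109917647 to 110014257), the second receptor of this family, was 237, 305 and 377 CPM (labelled tdT+) and 347, 311 and 406 CPM (tdT-) in Sca-1neg cells. Its Sca-1+ values were 93.3, 87.9 and 73.5 CPM (tdT+) and 113 and 167 CPM (tdT-), all under the Sca-1neg values. The falls were 1.85 ± 0.21 (adjusted p = 0.000458) and 1.34 ± 0.24 (adjusted p = 0.0117).

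Rspo3 (chromosome 10, 29452416 to 29535867), a secreted R-spondin, was scarce and rose. In Sca-1neg cells Rspo3 was 0.317, 2.95 and 0.386 CPM (labelled tdT+) and 0.682, 0.370 and 0.244 CPM (tdT-). In Sca-1+ cells Rspo3 was 12.9, 9.26 and 10.3 CPM (tdT+) and 10.7 and 3.56 CPM (tdT-). Its fractions did not overlap, but the replicate 2 library labelled Sca-1neg tdT+ lay close to Sca-1+ tdT- replicate 2. The rises were 4.03 ± 0.92 (adjusted p = 0.0294) among tdT- and 3.16 ± 0.85 (adjusted p = 0.0338) among tdT+ libraries. Of the exon bases of Rspo3, 13.1% overlap a gene on the opposite strand, from which reads cannot be told apart in counts without strand. Rspo1, a relative of Rspo3, reached at most 2.54 CPM and passed in no comparison.

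Bulge markers fell beside the receptors. Of 9 bulge stem cell genes, all 9 passed as lower in Sca-1+ cells among tdT+ libraries, beside 6.73% of all genes. Among tdT- libraries 4 passed as lower, beside 2.06% of all genes. In tdT+ against tdT- cells of the Sca-1+ fraction 5 passed as lower, beside 2.34% of all genes. The sum of the 9 was 8206, 8689.9 and 12823 CPM (labelled tdT+) and 12445, 12381 and 15178 CPM (tdT-) in Sca-1neg cells, against 4553, 3359.5 and 5459.9 CPM (tdT+) and 4440.3 and 5420.4 CPM (tdT-) in Sca-1+ cells. Basal keratinocyte markers rose beside the ligands among tdT+ libraries. Of 6 such genes, all 6 were higher with Sca-1 there and 3 passed, beside 5.94% of all genes passing as higher. Among tdT- libraries 3 of the 6 were higher and 3 lower (median log2 fold change 0.03). There 1 passed as higher, beside 3.68% of all genes. The sum of the 6 was 16919, 19441 and 22575 CPM (labelled tdT+) and 25228, 24869 and 25461 CPM (tdT-) in Sca-1neg cells, against 38469, 36781 and 31815 CPM (tdT+) and 23069 and 26064 CPM (tdT-) in Sca-1+ cells. The parts of bulge and basal cells in the member values were not tested.

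Among secreted inhibitors, 3 of the 10 tested fell with Sca-1 among tdT+ libraries and 2 among tdT- libraries. Sfrp1 (chromosome 8, 23411502 to 23449632), which binds Wnt proteins outside the cell, had the highest CPM per kb of all members averaged over all libraries. In Sca-1+ tdT+ libraries its mean was 22.01 CPM per kb and that of Sostdc1, the highest member there, 99.8. In Sca-1neg cells Sfrp1 was 650.4, 519 and 780.3 CPM (labelled tdT+) and 1494, 1906 and 1673 CPM (tdT-). In Sca-1+ cells Sfrp1 was 111, 112 and 66.5 CPM (tdT+) and 212 and 469.6 CPM (tdT-). The 4 groups did not overlap, from Sca-1+ tdT+ at the bottom to Sca-1neg tdT- at the top. Sfrp1 fell with Sca-1 by 2.76 ± 0.32 (adjusted p = 0.000445) among tdT+ and 2.31 ± 0.36 (adjusted p = 0.00717) among tdT- libraries. Between tdT+ and tdT- cells it fell by 1.82 ± 0.33 (adjusted p = 0.0143) in the Sca-1+ fraction. The Sca-1neg tdT difference was -1.38 ± 0.30 (adjusted p = 0.172), which did not pass although its groups did not overlap.

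Dkk3 (chromosome 7, 112116017 to 112159057), a divergent member of the dickkopf family, had the same order. In Sca-1neg cells Dkk3 was 306, 342 and 468 CPM (labelled tdT+) and 554, 525 and 671 CPM (tdT-). In Sca-1+ cells Dkk3 was 22.5, 37.0 and 24.9 CPM (tdT+) and 70.2 and 157 CPM (tdT-). Dkk3 fell by 3.73 ± 0.33 (adjusted p = 0.000121) among tdT+ libraries, 13.2-fold, and by 2.36 ± 0.36 (adjusted p = 0.00654) among tdT- libraries. It fell by 2.01 ± 0.33 (adjusted p = 0.00883) between tdT+ and tdT- cells of the Sca-1+ fraction. Wif1 (chromosome 10, 121033960 to 121100650), a secreted protein that binds Wnt, was 58.4, 29.0 and 136 CPM (labelled tdT+) and 46.8, 38.6 and 78.0 CPM (tdT-) in Sca-1neg cells. Its Sca-1+ values were 4.61, 16.6 and 2.27 CPM (tdT+) and 13.3 and 21.1 CPM (tdT-), below the Sca-1neg values throughout. Wif1 fell by 3.26 ± 0.85 (adjusted p = 0.0419) among tdT+ libraries, and 1.66 ± 0.92 (adjusted p = 0.354) among tdT- libraries did not pass.

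Sostdc1, an inhibitor of both BMP and Wnt signals, passed in no comparison. In Sca-1neg cells Sostdc1 was 159, 77.8 and 193 CPM (labelled tdT+) and 168, 172 and 264 CPM (tdT-). In Sca-1+ cells Sostdc1 was 142, 181 and 211 CPM (tdT+) and 85.3 and 133 CPM (tdT-). With Sfrp1 and Dkk3 lower, Sostdc1 took 68.3, 66.0 and 78.7% of the summed CPM per kb of secreted inhibitors in Sca-1+ tdT+ libraries and 15.1, 13.6 and 19.4% in Sca-1neg tdT-. That sum was 358, 284 and 487 (labelled tdT+) and 623, 708 and 765 (tdT-) in Sca-1neg cells, against 116, 154 and 150.2 (tdT+) and 135 and 242 (tdT-) in Sca-1+ cells. Dkk2, Dkkl1, Sfrp2, Sfrp4, Sfrp5 and Notum ran from 0 to 12.5 CPM and did not pass in edgeR with all libraries. DESeq2 called Notum as lower in tdT+ cells of the Sca-1+ fraction (adjusted p 0.0465) and with Sca-1 among tdT+ libraries (0.0456). Without Sca-1+ tdT+ replicate 2, Sfrp4 passed as lower for tdT in the Sca-1+ fraction (adjusted p 0.0304), with Sca-1 among tdT+ libraries (0.0145) and in the difference of the tdT effect (0.0487). Sfrp2 passed as higher with Sca-1 among tdT- libraries with only the groups compared (adjusted p 0.0349).

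Of the 5 membrane inhibitors, Apcdd1 (chromosome 18, 62922231 to 62961179), which binds Wnt and Lrp5 at the cell surface, rose in both comparisons. In Sca-1neg cells Apcdd1 was 52.4, 40.8 and 119.6 CPM (labelled tdT+) and 24.8, 18.0 and 22.4 CPM (tdT-). In Sca-1+ cells Apcdd1 was 161, 140.4 and 210.0 CPM (tdT+) and 86.7 and 81.6 CPM (tdT-). Sca-1+ values exceeded the Sca-1neg values of the same tdT class, and Sca-1neg tdT+ replicate 3 was above the Sca-1+ tdT- libraries. The rises were 1.95 ± 0.38 (adjusted p = 0.0187) among tdT- and 1.27 ± 0.35 (adjusted p = 0.0421) among tdT+ libraries. Without the 3 libraries with liver transcripts the tdT+ difference was 0.49 and did not pass (adjusted p 0.246). In the Sca-1neg fraction its tdT groups did not overlap, at a difference of 1.71 ± 0.36 (adjusted p = 0.159). Kremen1, a dickkopf receptor, was 108, 137 and 158 CPM (labelled tdT+) and 146, 110.1 and 124 CPM (tdT-) in Sca-1neg cells, against 182, 114 and 168 CPM (tdT+) and 160.4 and 138 CPM (tdT-) in Sca-1+ cells. Rnf43, a ubiquitin ligase that removes frizzleds from the surface, was 39.9, 50.7 and 71.5 CPM (labelled tdT+) and 48.2, 56.2 and 52.2 CPM (tdT-) in Sca-1neg cells, against 93.2, 56.7 and 92.5 CPM (tdT+) and 52.5 and 50.2 CPM (tdT-) in Sca-1+ cells. Both overlapped between groups. Neither they nor Kremen2 and Znrf3 passed in any comparison in edgeR with all libraries. Rnf43 passed as higher with Sca-1 among tdT+ libraries without Sca-1neg tdT+ replicate 3 (adjusted p 0.0404).

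Axin2 (chromosome 11, 108920349 to 108950783), a scaffold of beta-catenin destruction that is itself induced by Wnt signals, rose with Sca-1 among tdT+ libraries. In Sca-1neg cells Axin2 was 41.6, 36.3 and 54.4 CPM (labelled tdT+) and 42.2, 32.5 and 40.3 CPM (tdT-). In Sca-1+ cells Axin2 was 96.5, 58.4 and 97.5 CPM (tdT+) and 44.1 and 35.7 CPM (tdT-). The Sca-1+ tdT+ values were above all others, while Sca-1+ tdT- values lay inside the Sca-1neg range. The rise was 0.93 ± 0.23 (adjusted p = 0.0220) among tdT+ libraries, and the tdT- difference was 0.06 ± 0.25 (adjusted p = 0.928). Between tdT+ and tdT- cells of the Sca-1+ fraction Axin2 differed by 1.08 ± 0.26 (adjusted p = 0.0584), which did not pass. It did pass there in DESeq2 (adjusted p 0.00451) and in edgeR with no low-count filter (0.0231), without the 3 libraries with liver transcripts (0.0358) and on leaving out Sca-1neg tdT+ replicate 3 (0.0386) or Sca-1+ tdT+ replicate 2 (0.0247). Nkd1 (chromosome 8, 88521354 to 88594884), an inhibitor that binds dishevelled and is likewise a known Wnt target, went the other way. In Sca-1neg cells Nkd1 was 14.6, 3.96 and 13.4 CPM (labelled tdT+) and 9.34, 6.69 and 11.9 CPM (tdT-). In Sca-1+ cells Nkd1 was 0.426, 0 and 0.723 CPM (tdT+) and 2.06 and 2.81 CPM (tdT-). No Sca-1+ value reached a Sca-1neg value. Nkd1 fell by 4.77 ± 0.94 (adjusted p = 0.00866) among tdT+ libraries and did not pass among tdT- libraries (-1.93 ± 0.95, adjusted p = 0.282), where DESeq2 called it (adjusted p 0.0480), as did edgeR with only the groups compared (0.0326). Its relative Nkd2 ran from 0 to 11.4 CPM and did not pass.

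**Figure D3:**
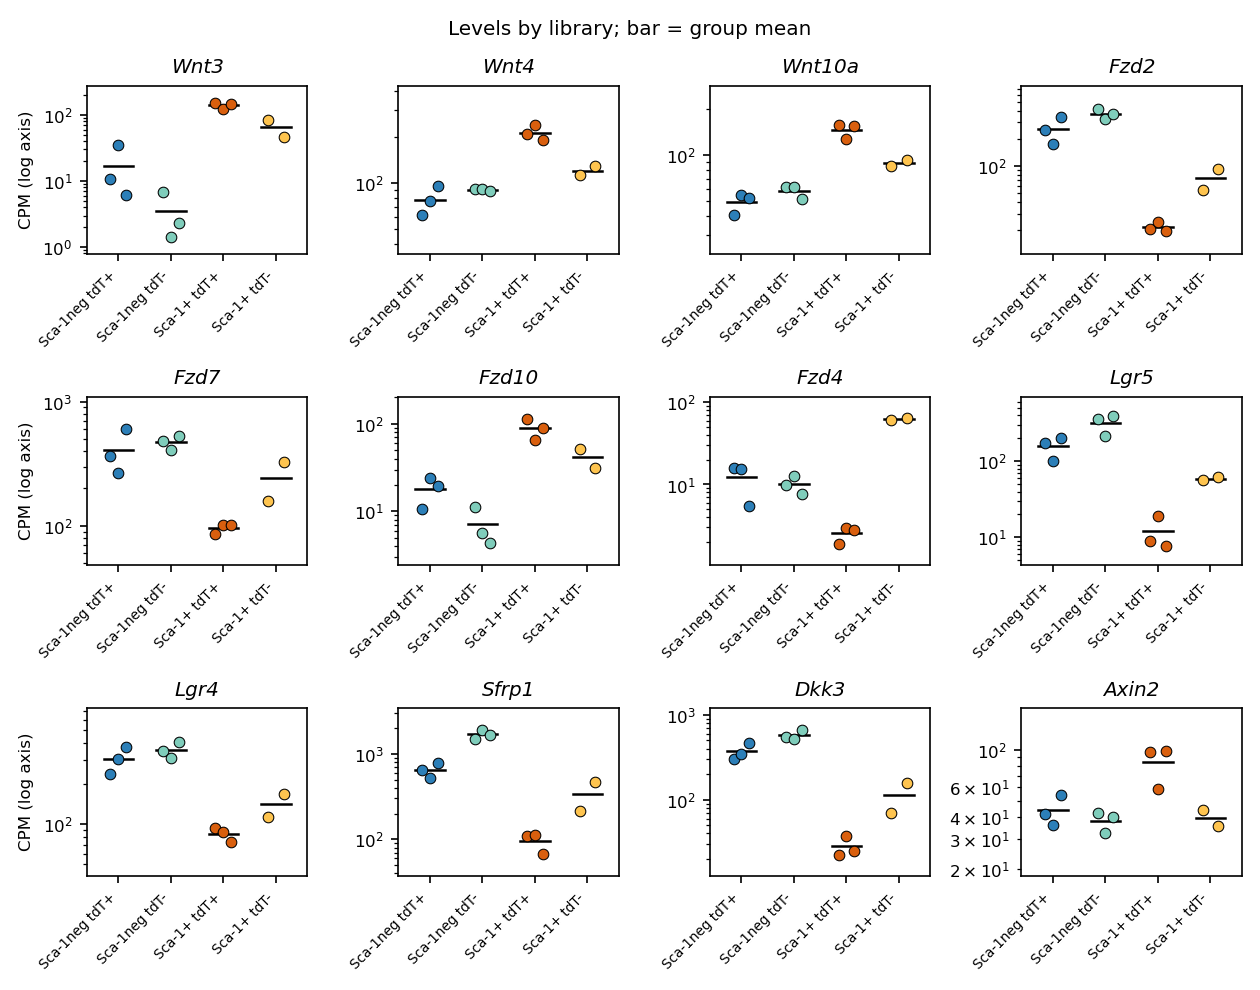
CPM on a log axis of 12 members in each library (points) by sorted group, with a bar at the group mean. Sca-1+ tdT+ libraries are the highest for Wnt4, Wnt10a and Axin2 and the lowest for Fzd2, Lgr5, Sfrp1 and Dkk3, and the Sca-1+ tdT- libraries alone hold Fzd4 at 61.5 and 64.7 CPM.

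The 2 Sca-1 comparisons share no library, so their values can be set beside each other. Of the 48 members, 41 had the same sign in both, with a Pearson r of 0.81 over genes, a description across genes that are not independent. Over all 20307 genes 66.3% had the same sign, and r was 0.53. All 17 members called among tdT- libraries were also called among tdT+ libraries, 16 in the same direction and Fzd4 in the opposite one. Of the 1166 genes called among tdT- libraries, 722 were called in both, 692 of them in the same direction. The 9 members called among tdT+ libraries alone were Wnt4, Wnt5a, Wnt10a, Wnt10b, Fzd7, Fzd9, Wif1, Axin2 and Nkd1. In edgeR the 2 effects did not pass a test of their difference for these 9: adjusted p for the difference ran from 0.102 to 0.9999, lowest for Wnt4 (1.05 ± 0.25) and Wnt10a (0.97 ± 0.23, adjusted p = 0.104). DESeq2 called the difference for 3 of them, Wnt4 (adjusted p 0.0272), Wnt10a (0.0352) and Nkd1 (0.0471). Without Sca-1neg tdT+ replicate 3 edgeR called it for Wnt4 too (adjusted p 0.0253).

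**Figure D4:**
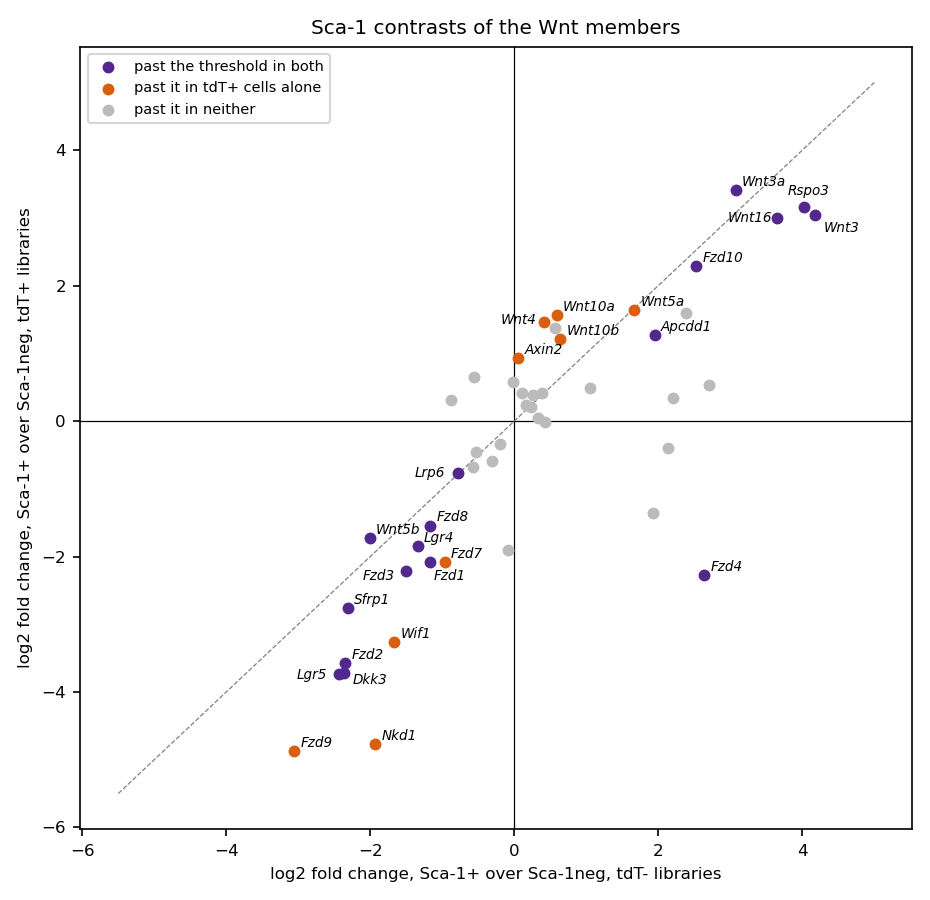
Log2 fold change of Sca-1+ over Sca-1neg cells for the 48 tested members, among tdT- libraries (x axis) and tdT+ libraries (y axis). The dashed line marks equal values, and colours mark the comparisons in which a gene passed the threshold. Of the members, 41 lie in the lower left or upper right, and Fzd4 is alone among called genes in the lower right.

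Between tdT+ and tdT- cells of the Sca-1+ fraction, Wnt4 rose by 0.83 ± 0.19 (adjusted p = 0.0421) and Fzd2, Fzd4, Lgr5, Dkk3 and Sfrp1 fell. Lgr5 fell by 2.31 ± 0.41 (adjusted p = 0.0179). For the 5 of these other than Fzd4 the difference from the tdT effect in the Sca-1neg fraction did not pass in edgeR, with adjusted p from 0.102 to 0.751. DESeq2 called that difference for 3 of the 5, Wnt4 as given above, Fzd2 (adjusted p 0.0369) and Dkk3 (0.0461). For tdT in the Sca-1+ fraction DESeq2 also called Fzd7 (adjusted p 0.00471), Fzd1 (0.0132), Fzd3 (0.00930), Lgr4 (0.0397) and Nkd1 (0.00679) as lower. It called Wnt10a there as higher (adjusted p 0.00966). With only the groups compared, edgeR called Fzd7 (adjusted p 0.0276), Fzd1 (0.0285) and Fzd3 (0.0292) as lower there. Under that setting Apcdd1 passed as higher (adjusted p 0.0314). T cell markers moved with tdT and with Sca-1. Of 13 such genes, 7 passed as higher in tdT+ cells of the Sca-1+ fraction, beside 0.394% of all genes. With Sca-1, 12 passed as higher among tdT+ libraries and 9 among tdT- libraries, beside 5.94% and 3.68% of all genes. Within the Sca-1neg fraction 12 of the 13 were higher in cells labelled tdT+ and 1 passed as higher, beside 0.0542% of all genes. There 11 of the 13 had an unadjusted p under 0.05, beside 8.33% of all genes. None of the 13 was at 0 in a library. Their sum was 93.2, 96.1 and 92.3 CPM (labelled tdT+) and 16.7, 36.1 and 17.4 CPM (tdT-) in Sca-1neg cells, against 450.2, 1128 and 764 CPM (tdT+) and 129 and 136 CPM (tdT-) in Sca-1+ cells. Their part in the member values was not tested. In the Sca-1neg fraction, the 5 members that DESeq2 called, named here after their values were seen, were Wnt3, Fzd10 and Apcdd1 as higher and Sfrp1 and Wnt9a as lower. Their edgeR values were 2.26 ± 0.77 (adjusted p = 0.496) for Wnt3, 1.34 ± 0.41 (adjusted p = 0.394) for Fzd10 and -2.13 ± 0.68 (adjusted p = 0.406) for Wnt9a. The 2 Sca-1neg tdT+ libraries with a high tracer held 10.6 and 6.12 CPM of Wnt3, and the replicate 2 library labelled Sca-1neg tdT+ held 34.7 CPM.

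Other genes of the pathway are given from lists drawn up by function, to be read against the 12.7% of all genes that passed with Sca-1 among tdT+ libraries and the 5.74% among tdT- libraries. Of 15 genes of the destruction complex and its relay, 1 (6.67%) passed with Sca-1 among tdT+ libraries: Csnk1a1, a kinase that primes beta-catenin for destruction, rose by 0.63 ± 0.16 (adjusted p = 0.0233). Among 14 TCF/LEF factors and nuclear partners, 1 rose and 3 fell there (28.6%), and 1 fell among tdT- libraries (7.14%). Tcf7l1, a TCF factor that mostly represses, was 39.1, 25.01 and 47.4 CPM (labelled tdT+) and 63.2, 56.5 and 49.5 CPM (tdT-) in Sca-1neg cells. Its Sca-1+ values were 3.04, 3.29 and 3.51 CPM (tdT+) and 31.5 and 44.8 CPM (tdT-). The Sca-1+ tdT+ libraries were the lowest in Tcf7l1, with a fall of 3.50 ± 0.26 (adjusted p = 6.02e-05) with Sca-1 among tdT+ libraries and a difference of -0.56 ± 0.26 (adjusted p = 0.257) among tdT- libraries, which did not pass. Tcf7l1 also passed as lower in tdT+ against tdT- cells of the Sca-1+ fraction. The tdT effect on Tcf7l1 differed between fractions, by -2.94 ± 0.35 (adjusted p = 0.00559). With Sca-1 among tdT+ libraries Tcf7l2, a further TCF factor, fell by 1.34 ± 0.21 (adjusted p = 0.00241). Tle3, a co-repressor, rose there by 0.93 ± 0.20 (adjusted p = 0.0135). Pygo1, a partner of beta-catenin, fell by 1.09 ± 0.24 (adjusted p = 0.0235) among tdT- libraries.

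Of 9 tested genes known to respond to beta-catenin, 3 rose and 1 fell with Sca-1 among tdT+ libraries (44.4%), and 2 rose and 1 fell among tdT- libraries (33.3%). Tnfrsf19, a TNF receptor family member, rose by 3.16 ± 0.59 (adjusted p = 0.0194) and 2.30 ± 0.54 (adjusted p = 0.0269) among tdT- and tdT+ libraries, and the receptor Ephb2 by 2.68 ± 0.44 (adjusted p = 0.00823) and 1.40 ± 0.40 (adjusted p = 0.0419). The transcription factor Ascl2 rose by 2.63 ± 0.66 (adjusted p = 0.0252) among tdT+ libraries. Id2, an inhibitor of helix-loop-helix factors, fell by 1.96 ± 0.33 (adjusted p = 0.00874) and 2.23 ± 0.28 (adjusted p = 0.000816). Of 12 tested planar cell polarity genes, 2 passed among tdT+ libraries (16.7%) and 1 among tdT- libraries (8.33%), both shares near those of all genes. Celsr1, a cadherin, rose by 1.13 ± 0.21 (adjusted p = 0.00697) and Invs, inversin, fell by 1.49 ± 0.22 (adjusted p = 0.00164) among tdT+ libraries, and Vangl2, a membrane organiser of polarity, fell by 0.82 ± 0.20 (adjusted p = 0.0369) among tdT- libraries. Invs also fell by 1.11 ± 0.24 (adjusted p = 0.0312) between tdT+ and tdT- cells of the Sca-1+ fraction. Of 13 tested further ligands and co-receptors, Ror2, a receptor for Wnt5a, fell by 1.84 ± 0.52 (adjusted p = 0.0428) among tdT+ libraries.

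The calls among tdT- libraries rested on few libraries. The count over all genes called with Sca-1 there also fell on leaving out some libraries, as the closing range shows. Losses of calls were thus not confined to the members. Leaving out Sca-1+ tdT- replicate 1 ended the member calls there except that of Fzd2 (16 of 17, adjusted p 0.0518 to 0.365). Leaving out Sca-1neg tdT- replicate 3 ended those other than Fzd2, Fzd4, Dkk3 and Sfrp1 (13 of 17, adjusted p 0.0501 to 0.125). Fewer ended without Sca-1neg tdT- replicate 1 (8 of 17, adjusted p 0.05003 to 0.103), Sca-1neg tdT- replicate 2 (7 of 17, adjusted p 0.0535 to 0.0919) and Sca-1+ tdT- replicate 2 (8 of 17, adjusted p 0.0604 to 0.160). Libraries of the tdT+ groups enter this comparison through the shared spread. The calls of Wnt5b, Wnt16, Fzd1, Lrp6 and Rspo3 ended without Sca-1+ tdT+ replicate 1 (5 of 17, adjusted p 0.0502 to 0.0655), those of Wnt5b and Fzd1 without Sca-1+ tdT+ replicate 2 (2 of 17, adjusted p 0.0509 to 0.0609) and those of Wnt5b, Wnt16 and Fzd1 without Sca-1+ tdT+ replicate 3 (3 of 17, adjusted p 0.0505 to 0.0591). Without Sca-1neg tdT+ replicate 1 the call of Fzd1 ended (1 of 17, adjusted p 0.0523).

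Among tdT+ libraries, 15 of the 26 calls held in every alternative run: Wnt3a, Wnt4, Wnt10a, Fzd1, Fzd2, Fzd3, Fzd7, Fzd8, Fzd9, Fzd10, Lgr4, Lgr5, Dkk3, Sfrp1 and Nkd1. Fzd4 and Lrp6 kept theirs on leaving out any 1 library and lost them without the 3 libraries with liver transcripts (adjusted p 0.0545 and 0.0509). That setting leaves 1 library in the Sca-1neg tdT+ group, whose spread is then taken from the remaining groups. It also ended the calls of Wnt5a (0.0503), Wnt10b (0.264), Apcdd1 (0.246) and Axin2 (0.244). Among the calls kept under it, some folds moved by over 1.5 times. Their log2 values were then 4.50 for Wnt3, 4.34 for Wnt3a, 4.81 for Wnt16, 4.78 for Rspo3, -6.10 for Fzd9 and -4.17 for Wif1. The call of Wnt3 ended without Sca-1neg tdT+ replicates 1 and 3, Sca-1neg tdT- replicate 3, Sca-1+ tdT+ replicates 1, 2 and 3 and Sca-1+ tdT- replicates 1 and 2 (adjusted p 0.0590 to 0.124). That of Wnt16 ended without Sca-1neg tdT+ replicate 1, Sca-1neg tdT- replicate 3, Sca-1+ tdT+ replicates 1, 2 and 3 and Sca-1+ tdT- replicate 2 (adjusted p 0.0508 to 0.0832). Rspo3 lost its call without Sca-1neg tdT+ replicates 1 and 3 and Sca-1+ tdT+ replicates 1, 2 and 3 (adjusted p 0.0668 to 0.0916). Wnt5b did so without Sca-1neg tdT+ replicates 1 and 3 and Sca-1+ tdT+ replicates 1, 2 and 3 (adjusted p 0.0506 to 0.0780). Wnt5a lost its call without Sca-1neg tdT+ replicates 1 and 3 and Sca-1+ tdT+ replicate 1 (adjusted p 0.0806 to 0.122). The call of Wnt10b ended without the replicate 2 library labelled Sca-1neg tdT+, Sca-1neg tdT+ replicate 1 and Sca-1+ tdT+ replicates 2 and 3 (adjusted p 0.0720 to 0.106). Axin2 lost its call without the replicate 2 library labelled Sca-1neg tdT+, Sca-1neg tdT+ replicate 1 and Sca-1+ tdT+ replicates 1 and 3 (adjusted p 0.0727 to 0.0769). Wif1 did so without Sca-1neg tdT+ replicates 1 and 3, Sca-1neg tdT- replicates 1 and 3, Sca-1+ tdT+ replicates 1 and 3 and Sca-1+ tdT- replicates 1 and 2 (adjusted p 0.0585 to 0.118). That of Apcdd1 ended without the replicate 2 library labelled Sca-1neg tdT+, Sca-1neg tdT+ replicate 1, Sca-1neg tdT- replicates 1 and 3, Sca-1+ tdT+ replicates 1, 2 and 3 and Sca-1+ tdT- replicates 1 and 2 (adjusted p 0.0609 to 0.133). Some called folds moved by over 1.5 times. Without the replicate 2 library labelled Sca-1neg tdT+ the log2 rises were 4.07 for Wnt3, 3.9998 for Wnt3a, 4.61 for Wnt16 and 4.93 for Rspo3. Without Sca-1neg tdT+ replicate 3 the values were -3.37 for Fzd9, -2.49 for Wif1 and 1.87 for Apcdd1. Wif1 reached -4.45 without Sca-1+ tdT+ replicate 2 and Nkd1 -5.48 without Sca-1+ tdT+ replicate 3.

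Among tdT- libraries the log2 rise of Wnt3 became 5.10 without Sca-1neg tdT- replicate 1. On leaving out Sca-1+ tdT- replicate 1 the rises were 2.02 for Wnt3a, 3.07 for Wnt16 and 3.01 for Rspo3. Without Sca-1+ tdT- replicate 2 the values were 3.73 for Wnt3a, 4.66 for Rspo3, -2.79 for Wnt5b, -3.01 for Dkk3 and -2.95 for Sfrp1. Of the member calls between tdT+ and tdT- cells of the Sca-1+ fraction, only that of Fzd4 held in every alternative run. The call of Wnt4 there ended without the replicate 2 library labelled Sca-1neg tdT+, Sca-1neg tdT- replicates 1, 2 and 3, Sca-1+ tdT+ replicates 1, 2 and 3 and Sca-1+ tdT- replicates 1 and 2 (adjusted p 0.0550 to 0.303). Fzd2 lost its call without Sca-1+ tdT- replicate 2 (adjusted p 0.0744), Dkk3 without Sca-1+ tdT- replicate 2 (adjusted p 0.0884), Sfrp1 without Sca-1+ tdT+ replicate 3 and Sca-1+ tdT- replicate 2 (adjusted p 0.0558 to 0.209) and Lgr5 without Sca-1+ tdT+ replicates 1 and 3 and Sca-1+ tdT- replicates 1 and 2 (adjusted p 0.0576 to 0.113). Without Sca-1+ tdT- replicate 2 the log2 values were -1.37 for Dkk3 and -1.18 for Sfrp1. Of the pathway genes, Tcf7l1, Tcf7l2, Id2, Celsr1 and Invs kept their calls among tdT+ libraries in every alternative, and no such gene did among tdT- libraries. In every alternative Tcf7l1 also kept its call between tdT+ and tdT- cells of the Sca-1+ fraction (log2 -3.78 to -3.31). Its call for the difference of the tdT effect held throughout as well. Tnfrsf19 lost its call among tdT- libraries without Sca-1neg tdT- replicate 3 and Sca-1+ tdT- replicate 1 (adjusted p 0.0915 to 0.182), at 2.12 without the latter and 3.81 without Sca-1+ tdT- replicate 2. Among tdT+ libraries it did so without Sca-1neg tdT+ replicates 1 and 3 and Sca-1+ tdT+ replicates 1 and 3 (adjusted p 0.0516 to 0.0913). Leaving out 1 library at a time ended the tdT+ call of Ephb2 in 9 of 11 cases (adjusted p 0.0582 to 0.106), all but those without Sca-1neg tdT+ replicate 1 and Sca-1neg tdT- replicate 2, and its tdT- call without Sca-1+ tdT- replicate 1 (adjusted p 0.0518). The call of Ascl2 ended without Sca-1neg tdT+ replicates 1 and 3 and Sca-1+ tdT+ replicates 1 and 3 (adjusted p 0.0591 to 0.0738), and its value was 3.40 without the replicate 2 library labelled Sca-1neg tdT+. That of Ror2 ended without Sca-1neg tdT+ replicates 1 and 3, Sca-1neg tdT- replicates 1 and 3 and Sca-1+ tdT+ replicates 1 and 3 (adjusted p 0.0637 to 0.127), and its value was -2.75 without Sca-1+ tdT+ replicate 2. Csnk1a1 lost its call without the replicate 2 library labelled Sca-1neg tdT+, Sca-1neg tdT+ replicate 1 and Sca-1+ tdT+ replicates 1 and 2 (adjusted p 0.0504 to 0.0805) and Tle3 without Sca-1neg tdT+ replicate 1 (adjusted p 0.0559). Among tdT- libraries Pygo1 lost its call without Sca-1neg tdT- replicates 1 and 3 and Sca-1+ tdT- replicates 1 and 2 (adjusted p 0.0794 to 0.257), Vangl2 without Sca-1neg tdT- replicates 1 and 3, Sca-1+ tdT+ replicates 1, 2 and 3 and Sca-1+ tdT- replicates 1 and 2 (adjusted p 0.0548 to 0.345) and Id2 without Sca-1+ tdT- replicate 1 (adjusted p 0.107). The call of Invs in the Sca-1+ fraction ended without Sca-1neg tdT- replicates 1 and 3, Sca-1+ tdT+ replicates 1 and 3 and Sca-1+ tdT- replicates 1 and 2 (adjusted p 0.0604 to 0.224).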

How the data were processed

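Per the labels, RNA was extracted with Trizol and made into TruSeq RNA v2 libraries. The authors deposited raw counts per Ensembl gene. The submitters' processing notes name bcl2fastq 2.20.0.422, FastQC, STAR, featureCounts, DESeq2 1.18.1 and the build mm10; whether counting used strand is not given in the sources used here. The tables hold 55536 genes and 1 entry with a protein identifier, read as the tdT tracer and left out of every test.

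The members and lists were chosen with earlier results of these data known. Symbols, coordinates and exon lengths came from GENCODE M21 (GRCm38). Levels are CPM scaled by TMM. All 11 libraries entered 1 fit with 4 group means, in edgeR 4.0.16 (R 4.3.3): filterByExpr, TMM and the robust quasi-likelihood test with 7 residual degrees of freedom. P-values were adjusted by Benjamini-Hochberg over 20307 genes, with a threshold of 0.05. The value after ± is an approximate standard error, the log2 fold change divided by the root of F. The fit was tested on simulated data. P-values measure the spread between pooled libraries, and whether groups came from the same mice is not given in the sources used here. No 2 libraries agreed within sampling noise.

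Per-library values are given for each member past the threshold in any comparison and for the 2 of each role with the highest CPM per kb. Of other pathway lists, genes past the threshold are named, at most 4 a list by lowest adjusted p. Cd34, Itga6, Ly6a and Cd4 check the labels. Alternatives were DESeq2 1.42.0, its size factors, library size alone, other filters, a replicate block, age, only the groups compared, and leaving out libraries. Intervals and limits for single libraries cover counting error only.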

Additional observations from a re-analysis of the deposited data

Results flagged for a closer look

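The tdT effect on Fzd4 differed between the Sca-1 fractions. The difference of the log2 fold changes (Sca-1+ minus Sca-1neg) was -4.91 ± 0.57, with an adjusted p of 0.00559 by the interaction contrast of edgeR's quasi-likelihood test. Without the 3 libraries with liver transcripts the difference was -4.01 (adjusted p 0.00264). Fzd4 was lower in tdT+ cells in the Sca-1+ fraction (log2 fold change -4.64), where all 3 tdT+ libraries lay below both tdT- libraries. In the Sca-1neg fraction the difference was 0.27 and the groups overlapped. Endothelial transcripts were most abundant in the same 2 Sca-1+ tdT- libraries (5796 and 6421 CPM summed over 14 genes), and their part in the difference was not tested.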

How the results depend on the processing

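Of 50 member calls over the 5 comparisons, 18 held under all alternatives run, and none reversed. DESeq2 kept all 50, and its size factors did so too.

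DESeq2 called 5, 16 and 6 members for tdT in the Sca-1neg fraction, for tdT in the Sca-1+ fraction and for their difference, and 432, 1461 and 868 of all genes. It called 2862 and 4808 of all genes with Sca-1 among tdT- and among tdT+ libraries. The main counts over all genes, in the order tdT in Sca-1neg, tdT in Sca-1+, Sca-1 among tdT-, Sca-1 among tdT+ and the difference, were 13, 556, 1166, 2572 and 98. With only the groups compared, 10 members and 957 genes passed for tdT in Sca-1+, 0 genes for tdT in Sca-1neg, and 2003 and 1584 genes with Sca-1 among tdT- and tdT+ libraries. Without the 3 libraries with liver transcripts, 1 member (Apcdd1, adjusted p 0.00769) and 38 genes passed for tdT in Sca-1neg, 12 members and 1286 genes for tdT in Sca-1+, 2073 genes with Sca-1 among tdT- libraries and 220 genes for the difference. With no low-count filter 81 genes passed for tdT in Sca-1neg and 234 for the difference. With age as a factor 8 passed for tdT in Sca-1neg, and DESeq2's size factors in edgeR gave 156 for the difference. These size factors moved the median log2 fold change of all genes in the difference from 0.05 to -0.07. The causes were not tested.

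Replicate numbers were not taken to pair the libraries: the labels do not tie a number to an animal, litter, batch or day. The age that replicate 1 shares across groups was run as a factor in edgeR, where 42 of the 50 member calls held. The age factor ended those of Wnt3 (adjusted p 0.056), Wnt16 (0.0504), Rspo3 (0.0554), Wif1 (0.0507) and Apcdd1 (0.0631) with Sca-1 among tdT+ libraries. Among tdT- libraries those of Wnt16 (0.0549) and Fzd1 (0.0536) ended, and for tdT in Sca-1+ that of Wnt4 (0.0518). Of 15 same-numbered pairs, 7 correlated above 0.1 (r from -0.41 to 0.59), and 7 of 11 libraries correlated best with one of their own number. With the replicate block, 38 of the 50 member calls held, and 10 members passed with Sca-1 among tdT- libraries. It ended the calls of Wnt3 (adjusted p 0.0747), Wnt5b (0.0581), Wnt16 (0.0968), Fzd1 (0.0601), Lrp6 (0.0569), Rspo3 (0.0545) and Lgr5 (0.0539) there, of Wnt3 (0.068), Wnt16 (0.0603) and Wif1 (0.0981) with Sca-1 among tdT+ libraries, and of Wnt4 and Lgr5 (both 0.0648) for tdT in Sca-1+, where Axin2 passed (0.0258).

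Leaving out 1 library at a time gave, in the order above, 0 to 0, 1 to 10, 1 to 19, 17 to 26 and 1 to 2 members, and 0 to 14, 145 to 791, 116 to 1665, 1591 to 3040 and 26 to 347 genes. Where this left 1 Sca-1+ tdT- library, it was assumed to vary like the other groups. Library totals of 17409131 counts or more leave genes under 1 CPM, such as Dkk1, with few counts.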
